A study of Petromyzon marinus with 2 samples.

Results

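Müller glia are the radial glial cells of the vertebrate retina. They take up the glutamate that neurons release and return it as glutamine, move water and ions, store glycogen and, in some vertebrates, keep features of retinal progenitors. This report follows 7 of the 24979 genes in the deposited gene list, taken because they mark Müller glia or their metabolism. GLUL (MSTRG.9787) encodes glutamine synthetase, AQP8 (MSTRG.8808) a water channel, PYGL (MSTRG.7042) the liver form of glycogen phosphorylase, which releases glucose units from glycogen, and CLU (MSTRG.5316) clusterin, a secreted chaperone and lipoprotein component. HES1 (MSTRG.6189) encodes a transcriptional repressor downstream of Notch, CRYM (MSTRG.7876) mu-crystallin, which binds thyroid hormone, and S1PR1 (MSTRG.7355) a receptor for sphingosine-1-phosphate. These roles were established mainly in mammals. The deposited list gives AQP8 and CLU by their MSTRG numbers alone, and their names come from the study's table of gene names. The genes were chosen with results of these same cells in view, so their higher level in glia than in neurons is given as a description without a test.

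Retinas of adult sea lampreys (Petromyzon marinus) were dissociated with papain and their cells profiled in droplets by 3' single-cell RNA sequencing. The 2 biological replicates, of 1 library each, form a single untreated group, and sorting of the cells is stated in the labels alone. Replicate 1 held 12933 cell barcodes with 87882951 UMIs (unique molecular identifiers, counted once per captured transcript) and a median of 4918 UMIs per barcode, and replicate 2 held 15958 barcodes with 117426390 UMIs and a median of 5557. The cell filters left 12903 and 15936 cells, and 83 barcode sequences occurred in both libraries (0.642% and 0.520% of each). Levels are given as CPM, the UMIs of a gene per 1000000 UMIs of the cells named. The kit counts transcript ends, so CPM were not divided by transcript length.

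Cells were gated by UMIs so that no cluster assignment was needed. To remove differences in depth, each cell of at least 1000 UMIs was thinned at random to 1000 UMIs, which left 10264 cells of replicate 1 and 14511 of replicate 2 and left out 2639 and 1425 shallower cells. A cell entered the glial gate when at least 3 of the 7 genes had a UMI after thinning. For the level of each single gene, a held-out gate was used, in which at least 3 of the other 6 genes had a UMI. Neuron gates required at least 2 UMIs of GAD1 (GABA synthesis), SLC32A1 (the vesicular transporter of GABA and glycine), CHAT (acetylcholine synthesis) or SLC17A6 (a vesicular glutamate transporter). They held 6308, 2531, 1898 and 322 cells in replicate 1 and 8739, 2920, 1880 and 630 in replicate 2, and they overlap: 49.7% and 64.8% of CHAT gate cells were also in the GAD1 gate.

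The 7 genes were found together in a small set of cells, larger in replicate 2. In replicate 1, 182 of 10264 thinned cells (1.77%, exact Clopper-Pearson 95% interval 1.53 to 2.05) had at least 3 of the genes, and in replicate 2, 986 of 14511 (6.79%, interval 6.39 to 7.22). These and all later intervals cover counting error only, and the replicates, of 1 library each, could not be tested against each other. The product of the single shares would give 22.4 and 172 such cells, so the counts were 8.12 and 5.74 times as high. The genes were chosen because they mark the same cells, so an excess is set by that choice and is given as a description. Most cells had none of the genes (7548 and 9381) or 1 of them (2276 and 3518). The counts then fell to 61 and 313 cells with 3 genes and rose again to 100 and 548 cells with 4, before 17 and 116 cells with 5. All 7 genes were found in 0 thinned cells of replicate 1 and in 1 of replicate 2.

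**Figure D1:**
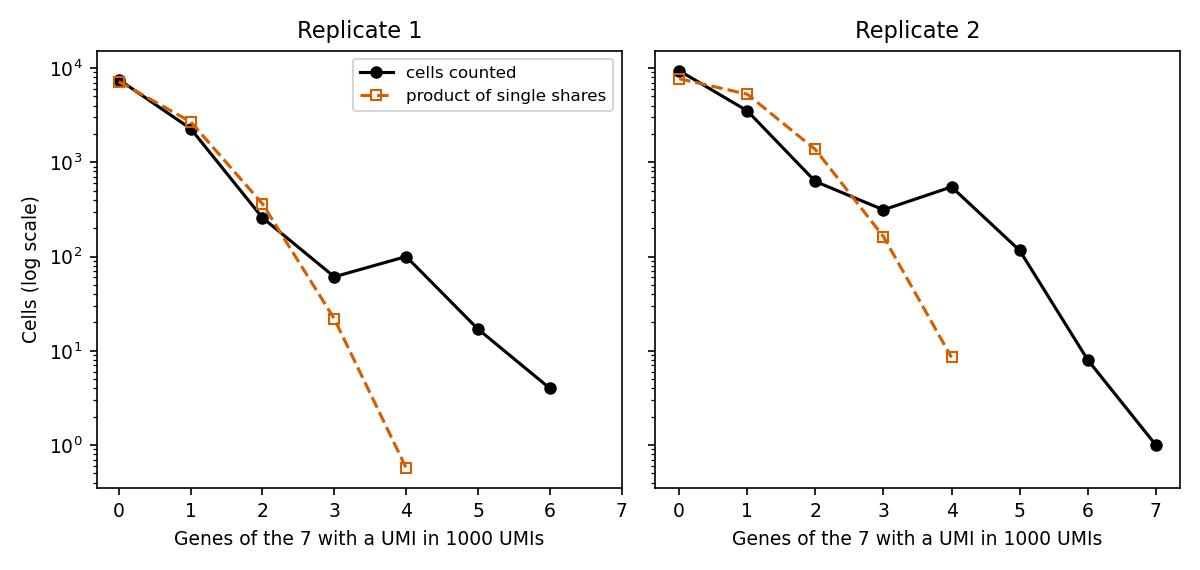
Number of cells (log scale) by how many of the 7 genes had a UMI in 1000 UMIs, for each replicate. Black points are the cells counted and open squares the number that the single shares of the genes would give if independent (values under 0.5 cells not drawn); the counts have a second rise at 4 genes, with 100 and 548 cells.

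The values on either side of the gate were far apart, but the groups were counted on the same 7 genes. A higher sum in cells with more of the genes is therefore set by construction. Cells with 2 of the genes had a median summed level of 959 CPM in replicate 1 and 1110 CPM in replicate 2 over all 7 genes. Cells with 3 had 6834 and 9107 CPM, and cells with 4 had 16136 and 14079 CPM. Cells with 3 genes were mixed in replicate 1, where the middle 50% spanned 4147 to 14097 CPM and the median depth was 3950 UMIs, against 16865.5 UMIs for cells with 4 genes (11441 and 13030 UMIs in replicate 2). Glial gate cells were deep, with medians of 15875 and 12690.5 UMIs against 6517 and 5950 in the other thinned cells.

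The gate rested on 4 abundant genes. After thinning, CLU was found in 96.7% of glial gate cells of replicate 1 and 96.6% of replicate 2, PYGL in 91.2% and 93.0%, AQP8 in 90.7% and 90.4% and GLUL in 80.8% and 81.8%. HES1, CRYM and S1PR1 were each found in 4.40% to 8.79% of thinned glial cells. With all UMIs of these cells, HES1 was found in 46.2% and 41.5%, CRYM in 67.6% and 51.5% and S1PR1 in 58.2% and 54.9%, and all 7 genes in 48 of 182 cells (26.4%) and 156 of 986 cells (15.8%).

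GLUL reached 2567 CPM in the held-out glial gate of replicate 1 (exact Poisson 95% interval 2503 to 2632) and 2090 CPM in that of replicate 2 (2062 to 2118). In the neuron gates it ranged from 70.2 CPM (SLC17A6) to 165 CPM (CHAT) in replicate 1 and from 123 CPM (SLC17A6) to 211 CPM (CHAT) in replicate 2. Of the abundant genes, GLUL had the smallest distance between glia and the GAD1, SLC32A1 and CHAT gates, with glial levels of 15.6 to 20.03 times the neuron level in replicate 1 and 9.92 to 11.3 times in replicate 2. A UMI of GLUL was found in 55.6% to 64.4% of cells of these 3 gates in replicate 1 and in 60.5% to 68.8% in replicate 2. An even spread of the same UMIs over the cells in proportion to depth would give 59.1% to 66.2% and 69.5% to 74.8%, so GLUL was found almost as widely as its counts allow.

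AQP8 stood at 3809 CPM (3727 to 3892) in held-out glia of replicate 1 and 3169 CPM (3134 to 3205) in replicate 2. The GAD1, SLC32A1, CHAT and SLC17A6 gates had 50.6, 36.4, 39.0 and 21.96 CPM in replicate 1 and 161, 113, 119 and 86.4 CPM in replicate 2. The glial level was thus 75.3 to 173 times the neuron level in replicate 1, and 19.7 to 36.7 times in replicate 2. AQP8 was found in 17.4% of GAD1 gate cells of replicate 1 and 27.6% of replicate 2, where an even spread would give 35.7% and 67.7%. Its UMIs in the neuron gates therefore sat in fewer cells than their number allows.

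PYGL had 2646 CPM (2579 to 2714) and 2835 CPM (2801 to 2869) in held-out glia. In the neuron gates it ran from 28.97 CPM (SLC17A6) to 65.7 CPM (GAD1) in replicate 1 and from 84.5 to 172 CPM in the same gates of replicate 2. CLU was at 6159 CPM (6053 to 6266) and 4996 CPM (4950 to 5043) in glia. Unlike GLUL, AQP8 and PYGL, its highest neuron level was in the SLC17A6 gate, with 200 CPM (187 to 214) in replicate 1 and 313 CPM (301 to 325) in replicate 2, and its lowest in the SLC32A1 gate, with 62.6 and 163 CPM. A UMI of CLU was found in 63.4% and 76.8% of SLC17A6 gate cells and in 22.8% and 28.4% of SLC32A1 gate cells, or in 21.5%, 25.6%, 3.46% and 6.20% after thinning.

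The other 3 genes were scarce also in glia. HES1 had 64.2 CPM (54.96 to 74.6) and 61.9 CPM (57.6 to 66.5) in glia and 0.226 to 3.91 CPM in the neuron gates of both libraries. Its lowest values were in the SLC17A6 gate, with 1 UMI in 322 cells of replicate 1 and 7 UMIs in 630 cells of replicate 2. CRYM had 91.3 CPM (80.2 to 104) and 68.3 CPM (63.8 to 73.1) in glia and 2.59 to 8.15 CPM in neurons. S1PR1 had 75.4 CPM (65.3 to 86.6) and 83.6 CPM (78.6 to 88.9) in glia and was highest among neurons in the SLC32A1 gate, with 7.08 CPM (5.999 to 8.31) and 11.6 CPM (10.3 to 13.04).

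**Figure D2:**
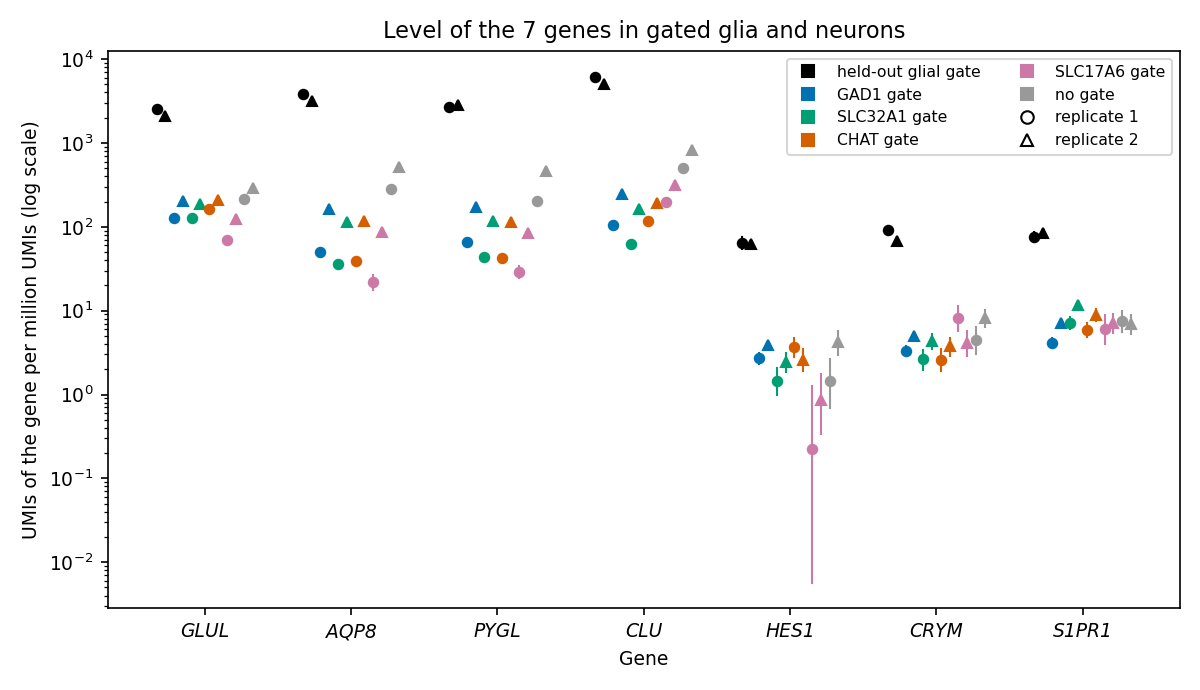
Level of each gene (CPM, log scale) in the held-out glial gate, the 4 neuron gates and cells of no gate, with circles for replicate 1, triangles for replicate 2 and bars for exact Poisson 95% intervals (counting error only). For each gene the glial values of both replicates lie above those of all other gates.

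Expressed as a share of the glial level, the neuron levels were low but unequal. Of the 28 pairs of gene and neuron gate, 25 were under 10% in both libraries, with medians of 2.79% in replicate 1 and 5.68% in replicate 2. The exceptions were GLUL in the CHAT gate (6.42% and 10.1%) and S1PR1 in the SLC32A1 gate (9.39% and 13.9%) and CHAT gate (7.86% and 10.6%). Within the SLC32A1 gate of replicate 1 the share ran from 0.956% for AQP8 to 9.39% for S1PR1, and in replicate 2 from 3.26% for CLU to 13.9% for S1PR1. The highest share was 1.96 to 25.3 times the lowest over the 8 gates of both libraries, where 25.3 rests on 1 UMI of HES1 in the SLC17A6 gate of replicate 1, and 1.96 to 6.26 times over the 4 abundant genes alone. These shares include the glial gate cells that are also in a neuron gate.

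**Figure D3:**
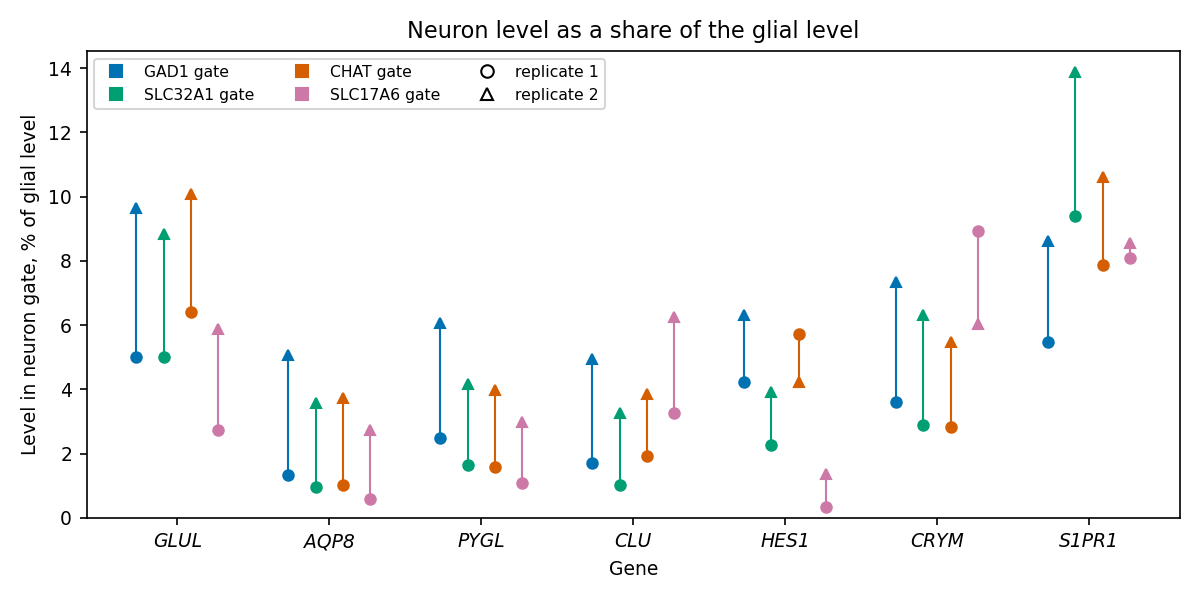
Level of each gene in each neuron gate as a percentage of its level in the held-out glial gate, with a line joining replicate 1 (circle) and replicate 2 (triangle). GLUL and S1PR1 stand above AQP8 in every gate of both replicates, and the values are higher in replicate 2 except for HES1 in the CHAT gate and CRYM in the SLC17A6 gate.

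A small number of cells counted in both gates carried much of the abundant genes' UMIs in neurons. Of the glial gate cells, 37 of 182 (20.3%) and 294 of 986 (29.8%) were also in a neuron gate. With the neurons placed in 4 classes that do not overlap (CHAT, then SLC32A1, then SLC17A6, then GAD1), such cells made up 26 of 4695 cells (0.554%) of the GAD1 class in replicate 1 and 206 of 6630 (3.11%) in replicate 2. They held 47.8% and 75.5% of that class's AQP8 UMIs, 40.6% and 76.8% of its CLU UMIs and 16.1% and 43.4% of its GLUL UMIs. Without them, AQP8 in the GAD1 class went from 61.6 to 32.5 CPM in replicate 1 and from 190 to 49.4 CPM in replicate 2, and CLU from 115 to 68.8 and from 285 to 70.1 CPM. The level in replicate 2 over that in replicate 1 went from 3.09 to 1.52 for AQP8 and from 2.48 to 1.02 for CLU. The gate is made of UMIs of these genes, so leaving its cells out lowers them by construction. Whether such a barcode held 2 cells or the RNA of another cell was not tested.

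In the neuron gates, the 6 pairs of abundant genes were found together in 1.18 to 3.88 times as many thinned cells as their single shares give, over both libraries. Without glial gate cells, AQP8 and PYGL shared 8 of 8311 thinned cells in replicate 1, where 9.95 would be given by the shares, and 39 of 10905 cells in replicate 2, where 33.2 would be. Over the 6 pairs the ratio then ran from 0.759 to 1.28, but the cells left out are those with at least 3 of the genes, so this drop is set by their removal and nothing is read from it.

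The levels of the gate genes in glial gate cells were also unequal. GAD1 was at 124 and 212 CPM in glial gate cells, 5.997% and 12.03% of its level in its own gate, whereas SLC17A6 was at 4.87 and 10.6 CPM, 0.723% and 1.56% of its own. Of the other markers of retinal neurons, 3 for photoreceptors (RCVRN, CDHR1, RBP3) summed to 2.62 and 3.81 CPM in glial gate cells against 4.25 and 9.35 CPM in the neuron classes. Those of horizontal cells (LHX1, PROX1, SALL3) summed to 7.12 and 10.3 CPM against 15.2 and 23.3 CPM. No neuron class was gated for either cell type, so these are not comparisons with photoreceptors or horizontal cells. POU4F2, a ganglion cell marker, had 0 UMIs in glial gate cells of replicate 1 and 1 in replicate 2, but it was also scarce in the neuron classes (0.307 and 0.459 CPM). The 5 pigment epithelium markers summed to 3.75 and 2.92 CPM in glial gate cells against 9.20 and 3.86 CPM in the neuron classes, with PMEL at 0 in glial gate cells of both libraries. The 2 endothelial markers summed to 1.12 and 6.16 CPM against 1.06 and 2.11 CPM. All of these UMIs in glial gate cells were of VWF, with TAL1 at 0 in both libraries. PAX2 had 6.74 and 2.11 CPM against 7.86 and 4.34 CPM, and the 3 markers of dividing cells summed to 0.375 and 0.487 CPM against 1.09 and 1.20 CPM. The part of these markers in the results was not tested. KCNJ10 and AQP4, potassium and water channels of mammalian Müller glia, were both at or below 0.749 CPM in glial gate cells, whereas CA14 and NFIA, 2 other listed markers of Müller glia, were higher there than in neurons.

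To see every population, each library was clustered by itself without the 7 genes and the 4 gate genes. Replicate 1 gave 48 clusters, of which 47 had at least 20 cells, and replicate 2 gave 47. All 7 genes had their highest level in the same cluster of each library, cluster 34 of replicate 1 (142 cells, median 17713.5 UMIs) and cluster 3 of replicate 2 (940 cells, median 12869 UMIs). These clusters were also the best match of each other (r = 0.975 over 3000 genes). In them GLUL was at 2536 and 2033 CPM, AQP8 at 3765 and 3147, PYGL at 2658 and 2814, CLU at 6165 and 4840, HES1 at 65.8 and 63.2, CRYM at 94.0 and 70.7 and S1PR1 at 78.2 and 85.9 CPM. Replicate 1 had a further cluster of this kind, cluster 37, of 129 shallow cells (median 883 UMIs), with GLUL at 543, AQP8 at 943, PYGL at 1386 and CLU at 1677 CPM. Of the glial gate cells, 163 of 182 (89.6%) and 887 of 986 (89.96%) lay in these clusters.

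Single cells of the glial gates differed in level beyond counting error for the abundant genes. Among cells of its held-out gate with at least 5000 UMIs, GLUL had a median of 2560 CPM per cell in replicate 1, with 80% of cells between 1495 and 3794 CPM, and a median of 2052 CPM in replicate 2, with 80% between 1037 and 3372 CPM. Its coefficient of variation was 0.393 over 130 cells and 0.443 over 719 cells, where counting error alone would give 0.157 and 0.191. For CLU the values were 0.244 and 0.310 against 0.0979 and 0.124, for PYGL 0.258 and 0.293 against 0.151 and 0.163, and for AQP8 0.329 and 0.397 against 0.126 and 0.155. GLUL thus had the widest spread of the 4 in both libraries, and it had no UMI in 2 and 5 of these cells. CRYM in replicate 1 varied about as much as counting gives (0.740 against 0.763). Across the glial gate cells with at least 5000 UMIs, log levels of the 4 genes rose and fell together, with Pearson r from 0.638 (GLUL and AQP8) to 0.793 (PYGL and CLU) over 142 cells and from 0.516 (GLUL and PYGL) to 0.749 (PYGL and CLU) over 818 cells. These cells share a library and were gated on these genes, so the values are a description. Of all glial gate cells, 20.3% and 29.8% were also in a neuron gate. The part of such cells in the spread and in the r values was not tested.

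Outside glia and among clusters of more than 2000 median UMIs matched between the libraries, AQP8, PYGL, CLU and S1PR1 each stood highest in a different pair of clusters, the same pair in both libraries, and GLUL did not. Matching clusters by their best correlation with each other gave 39 pairs, of which 38 were not glial, and 34 of these had medians over 2000 UMIs in both libraries. In these 34 pairs, 4 of the 7 genes had their highest level in the same pair in both libraries. AQP8 peaked in cluster 25 of replicate 1 (172 CPM, interval 151 to 196) and cluster 18 of replicate 2 (144 CPM, 128 to 162), which were 9.02 and 3.43 times its median over the pairs. Of the cells of these clusters, 99.5% and 98.9% were in the GAD1 gate, and 58.3% and 48.9% had a UMI of AQP8. GLUL, PYGL and CLU stood there at 0.676 to 1.45 times their medians.

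PYGL peaked in another pair of GAD1 clusters, cluster 26 (248 CPM, interval 223 to 275) and cluster 31 (386 CPM, 355 to 418), at 9.80 and 8.81 times its median. The other 3 abundant genes were at 0.653 to 1.01 times their medians in that pair. PYGL was also high in cluster 21 of replicate 1 (160 CPM) and its match, cluster 26 of replicate 2 (185 CPM). Of their cells, 98.7% and 98.5% were in the GAD1 gate. Among the 34 pairs CLU peaked in clusters 30 and 15, where 81.9% and 89.3% of cells were in the SLC17A6 gate. Its level there was 406 CPM (373 to 441) and 358 CPM (338 to 380), and 86.1% and 86.9% of cells had a UMI. CLU was higher in the shallow pair of clusters 40 and 43 (medians of 1088 and 1352 UMIs), at 486 and 914 CPM, and in cluster 39 of replicate 2 (430 CPM, 84.5% of cells in the SLC17A6 gate), whose match in replicate 1 was shallow. S1PR1 peaked in clusters 15 and 20, with 68.9% and 64.4% of cells in the SLC32A1 gate, at 30.97 CPM (23.1 to 40.7) and 56.8 CPM (46.5 to 68.6), which was 12.1 and 27.1 times its median. In replicate 1 cluster 13 lay within that interval, at 25.4 CPM. The 8 peak clusters of AQP8, PYGL, CLU and S1PR1 held 0 to 3 glial gate cells each. Leaving those out took S1PR1 in cluster 20 to 55.1 CPM, CLU in cluster 15 to 349 CPM, PYGL in cluster 31 to 383 CPM and AQP8 in cluster 18 to 143 CPM. GLUL had no such pair among the 34: its highest deep clusters, 15 in replicate 1 (183 CPM) and 28 in replicate 2 (192 CPM), were only 1.83 and 1.60 times its median and were not a pair. The match of cluster 28 in replicate 1, cluster 27, had rank 2 there at 177 CPM. That lies within the interval of cluster 15 (163 to 205 CPM). HES1 was highest in cluster 27 of replicate 1 (11.4 CPM), a CHAT cluster, and CRYM in clusters of 5 and 52 UMIs, and neither gene peaked in 1 pair.

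Over the 38 pairs, the Pearson r of log2(CPM + 10) between libraries was 0.909 for CLU, 0.855 for GLUL, 0.834 for AQP8, 0.803 for PYGL, 0.778 for S1PR1, 0.514 for HES1 and 0.493 for CRYM. The clusters of a library share its depth and free RNA, so these values are a description. A shallow cluster in each library (1513 cells with a median of 761 UMIs, and 1198 cells with a median of 817) had the highest GLUL outside glia, at 305 and 494 CPM, with AQP8 at 154 and 394 CPM.

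**Figure D4:**
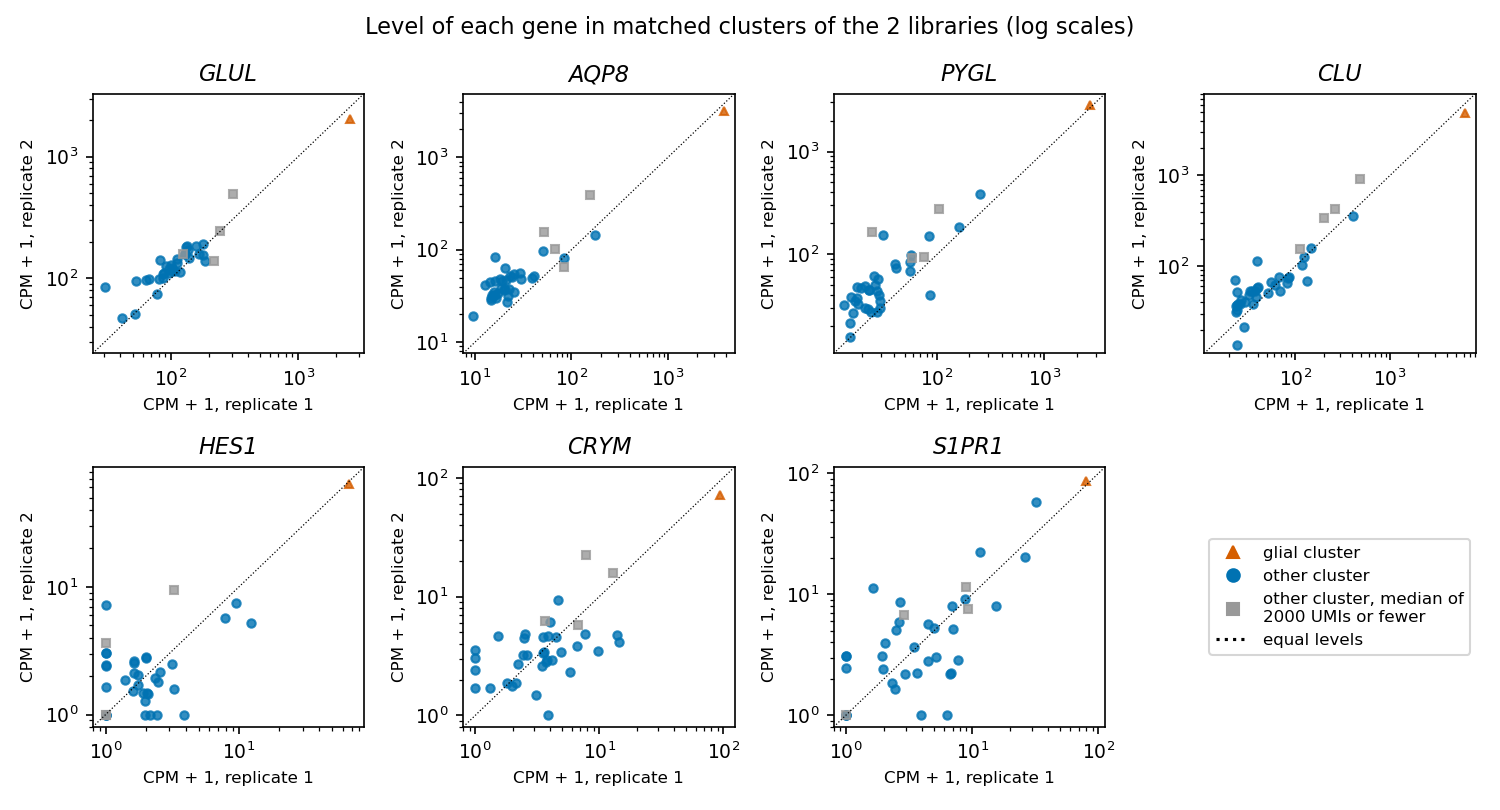
Level of each gene in the 39 matched pairs of clusters, replicate 1 against replicate 2 (CPM + 1, log scales), with the glial pair as a triangle, other pairs as circles and pairs with a median of 2000 UMIs or fewer in either library as squares. The glial pair is highest for each gene, and among the circles AQP8, PYGL, CLU and S1PR1 are each highest in the same pair in both replicates.

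Differences among neuron classes were not used in choosing the genes, so they were tested. UMIs were summed per library and class, and every class was set against the average of the remaining 3 in edgeR's quasi-likelihood test with the library as a block, on 16031 genes, with Benjamini-Hochberg adjustment over all of them. All 7 genes passed the filter on low counts. A call needed 2-fold or more with an adjusted p below 0.05. Of all genes, 7.51% were called for the CHAT class (4.09% higher, 3.42% lower), 8.01% for SLC32A1 (3.29% higher, 4.72% lower), 15% for SLC17A6 (8.38% higher, 6.57% lower) and 8.49% for GAD1 (4.78% higher, 3.71% lower). Of the 28 contrasts of the 7 genes, 3 were called. CLU was lower in the SLC32A1 class, at 54.5 and 168 CPM against means of 152 and 263 CPM in the other classes (log2 fold change -1.03, standard error 0.20, adjusted p = 0.0053). The log2 difference, without a test, was -1.48 in replicate 1 alone and -0.65 in replicate 2 alone. HES1 was lower in the SLC17A6 class, with 0 UMIs in replicate 1 and 7 in replicate 2, or 0.971 CPM against a mean of 3.24 CPM in the latter (log2 fold change -2.12, standard error 0.70, adjusted p = 0.0370). HES1 was higher in the GAD1 class, at 2.55 and 4.78 CPM against means of 1.62 and 1.97 CPM (log2 fold change 1.24, standard error 0.36, adjusted p = 0.0363), where the fitted mean of the others includes the SLC17A6 class with its few UMIs, and the log2 difference was 0.62 in replicate 1 alone. Glial gate cells held 25.9% and 68.0% of the HES1 UMIs of the GAD1 class. In replicate 2 they also held 85.7% of those of the SLC17A6 class. Levels without these cells are given below.

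Smaller differences had a low adjusted p without reaching 2-fold. GLUL had 165 and 211 CPM in the CHAT class against means of 103 and 169 CPM (log2 fold change 0.57, standard error 0.08, adjusted p = 0.00102). PYGL and AQP8 had log2 fold changes of 0.97 and 0.84 in the GAD1 class. In the SLC17A6 class these were -0.84 and -0.74, all with adjusted p of 7.35e-05 or lower in edgeR. In replicate 2, glial gate cells held 63.2% of PYGL and 75.5% of AQP8 UMIs of the GAD1 class. Without such cells, AQP8 was at 32.5 and 49.4 CPM there, against 11.4 to 21.03 and 30.1 to 47.002 CPM in the other classes. PYGL was at 56.2 and 78.6 CPM, against 16.9 to 37.1 and 30.98 to 58.4 CPM. Leaving such cells out lowers these levels by construction, so they are given without a test. With these cells kept, CLU had 224 and 311 CPM in the SLC17A6 class against means of 95.8 and 215 CPM (0.96, adjusted p = 0.00329). Together 13 of the 28 contrasts had an adjusted p under 0.05. With neuron gates of at least 3 UMIs, CLU in the SLC32A1 class (-0.80) and HES1 in the GAD1 class (1.01) were no longer called, while HES1 in the CHAT class (1.22) and CLU in the SLC17A6 class (1.15) were, and with at least 1 UMI none of the 3 calls was made. The sums of classes come from the same 2 libraries, and the block takes out the difference between these libraries. The p-values thus rest on how far the class differences vary between the 2 libraries, not on the spread among animals.

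With the glial gate cells left out of the classes, 7 of the 28 contrasts were called, where 7.94% of all genes were called for CHAT, 8.33% for SLC32A1, 15.6% for SLC17A6 and 9.05% for GAD1. The cells left out were chosen by UMIs of the 7 genes tested. In replicate 2 they held 26.8% of CLU UMIs in the SLC17A6 class and 55.9% to 76.8% in the other classes. For S1PR1 the removed share in replicate 2 was 57.5% in the GAD1 class and 23.7% to 26.2% in the other classes. The removal itself thus changes these contrasts, so the values are given as a description and no adjusted p is given. CLU was then higher in the SLC17A6 class, at 197 and 234 CPM against means of 61.3 and 71.6 CPM (log2 fold change 1.79, standard error 0.11), and lower in the SLC32A1 class, at 33.7 and 56.4 CPM (log2 fold change -1.34). S1PR1 was lower in the GAD1 class, at 2.74 and 2.91 CPM against means of 6.51 and 7.11 CPM (log2 fold change -1.24), a contrast not called with the cells kept. HES1 was called in 3 classes, but only 1 HES1 UMI was left in the SLC17A6 class of both libraries together, and the fitted means that the other classes were set against include it, so no fold is given. HES1 had 3.42 and 1.59 CPM in the CHAT class against means of 1.03 and 0.892 CPM, and 1.91 and 1.62 CPM in the GAD1 class against 1.53 and 0.883 CPM. With the glial gate cells kept, the CHAT difference was 1.501 on the log2 scale in replicate 1 alone and -0.04 in replicate 2 alone. CRYM was higher in the SLC17A6 class, with 31 and 21 UMIs or 8.43 and 2.999 CPM against means of 2.49 and 2.35 CPM (log2 fold change 1.15), a difference carried by replicate 1. With the glial gate cells kept, it was 1.55 on the log2 scale in replicate 1 alone and -0.31 in replicate 2 alone, without a test. An unadjusted p under 0.05 was found for 14 of the 28 contrasts with these cells and for 19 without them. Without the library block 0 of the 28 were called by edgeR, and 2 had an unadjusted p under 0.05. The share of all genes with such an unadjusted p was not counted, so nothing about the 7 genes is read from these numbers.

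The glial gate was made from the 7 genes alone, so other genes of the same pathways could be tested between glial gate cells and the neuron classes without those cells. Of 202 genes on 9 lists, 41 had a named gene here and 36 passed the filter. Only 8013 of all 24979 genes had a name here, fewer than in the study's own annotation. SOX2 and SOX9, which the paper reports in the lamprey retina, were among those without one. The results thus cover the few genes of each list that could be named, not whole pathways. Of these, 12 were higher and 4 lower in glia, where 17.9% of the 16234 genes tested were higher and 17.9% lower. The median log2 fold change was 0.17 over the lists and -0.07 over all genes. The lists were chosen with results of these data known.

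**Figure D5:**
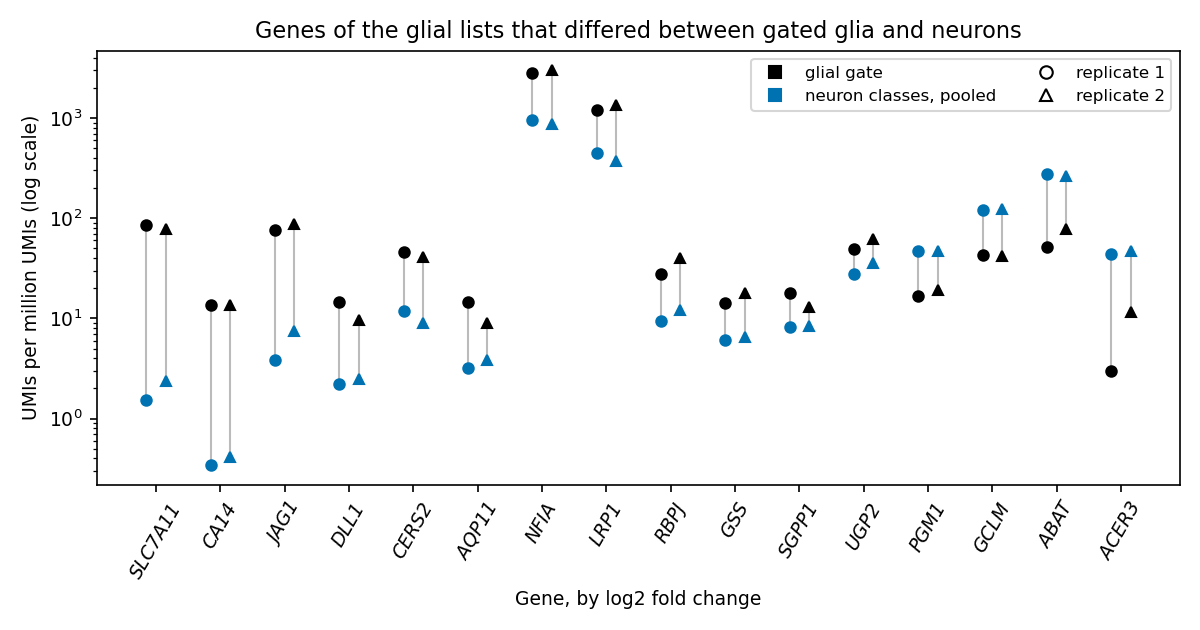
Level (CPM, log scale) in glial gate cells (black) and in the 4 neuron classes pooled (blue) for the 16 genes of the lists called different, with circles for replicate 1 and triangles for replicate 2. The black symbols lie above the blue ones in both replicates for the 12 genes from SLC7A11 to UGP2 and below them for PGM1, GCLM, ABAT and ACER3.

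Of 7 genes of glutamate and glutamine handling tested, 2 were higher and 2 lower. SLC7A11, the cystine and glutamate exchanger, had 86.1 and 77.7 CPM in glia against 1.53 and 2.38 CPM in neurons (log2 fold change 5.64, standard error 0.16, adjusted p = 9.63e-09 in edgeR), and GSS, glutathione synthetase, had 14.2 and 18.1 CPM against 6.03 and 6.59 CPM (1.73). ABAT, which breaks down GABA, was lower in glia, at 52.1 and 77.4 CPM against 276 and 263 CPM (-1.54). GCLM, the modifier subunit of the enzyme that starts glutathione synthesis, was also lower, at 43.4 and 42.0 CPM against 120 and 123 CPM (-1.18).

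For glycogen, the pathway of PYGL, 9 genes were tested. UGP2, which makes the glucose donor for glycogen, was higher (49.4 and 61.6 CPM against 27.7 and 35.6 CPM, log2 fold change 1.10), PGM1, a phosphoglucomutase, was lower (16.9 and 19.3 CPM against 47.1 and 46.7 CPM, -1.09), and 7 were not called. TPI1 of glycolysis was not called, at 429 and 517 CPM against 450 and 517 CPM. Of 2 aquaporins beside AQP8, AQP11 was higher in glia (14.6 and 9.08 CPM against 3.21 and 3.83 CPM, 2.10) and AQP4, the main water channel of mammalian Müller glia, had 2 UMIs in glial gate cells of each library.

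On the Notch list, the pathway of HES1, 3 of 31 genes had a name here and were tested, and these 3 were higher in glia. JAG1, a Notch ligand, had 77.2 and 87.4 CPM against 3.83 and 7.42 CPM (log2 fold change 3.91, standard error 0.20), DLL1, another ligand, 14.6 and 9.73 CPM against 2.21 and 2.51 CPM (2.62), and RBPJ, the DNA-binding partner of Notch, 27.7 and 39.7 CPM against 9.50 and 12.2 CPM (1.81). Of 6 genes of sphingosine phosphate metabolism, CERS2, a ceramide synthase (46.4 and 41.2 CPM against 11.9 and 9.09 CPM, 2.58), and SGPP1, a sphingosine phosphate phosphatase (17.98 and 12.9 CPM against 8.28 and 8.31 CPM, 1.14), were higher. ACER3, a ceramidase, was lower (2.996 and 11.5 CPM against 44.1 and 46.6 CPM, -2.11). LRP1, a lipoprotein receptor, was the called gene of 3 clusterin receptors and lipoproteins (1213 and 1354 CPM against 446 and 374 CPM, 1.90). Of 3 genes of thyroid hormone handling, 0 were called. On the list of Müller glia markers, CA14, a membrane carbonic anhydrase (13.5 CPM in both libraries against 0.345 and 0.418 CPM, 5.12), and the transcription factor NFIA (2797 and 2984 CPM against 946 and 881 CPM, 1.99) were higher. The adjusted p of these calls was 0.00029 or lower in edgeR's test. By the pooled CPM, UGP2 in both libraries and SGPP1 in replicate 2 were less than 2-fold higher in glia. In cells thinned to 1000 UMIs, GSS (0.88), UGP2 (0.85), SGPP1 (0.80) and PGM1 (-0.95) did not reach 2-fold, and with a glial gate of at least 2 of the 7 genes ABAT (-0.78), GCLM (-0.68), PGM1 (-0.79), UGP2 (0.82) and SGPP1 (0.93) did not.

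Among the named genes most like the mean of the 7 across the 47 clusters of each library, by the lower Pearson r of the libraries, were BAG6, a chaperone of the protein quality control machinery (0.948), CYP21A2, a steroid hydroxylase (0.938), ATP1B3.1, a sodium pump subunit (0.936), G6PC, a glucose phosphatase (0.932), MLC1, a membrane protein of astrocytes in mammals (0.932), SDS, serine dehydratase (0.931), FBLN7, a fibulin (0.925), EPAS1, a hypoxia-inducible factor (0.895), and NRARP, a Notch-regulated protein (0.894). In the glial clusters ATP1B3.1 had 1184 and 1360 CPM against 6.03 and 17.8 CPM in all other cells, G6PC 841 and 551 against 3.10 and 4.57 CPM, BAG6 652 and 645 against 3.73 and 7.90 CPM and MLC1 225 and 201 against 1.11 and 3.08 CPM. The glial clusters set most of these correlations, and the genes took part in the clustering, so no test is given. The names BAG6, CYP21A2, ATP1B3.1 and EPAS1 come from the study's table, which rests on the closest human protein sequence. Whether these lamprey genes have the roles named was not tested.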

How the data were processed

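The authors aligned the reads of both libraries with Cell Ranger (7.0.1 in the file headers, 6.0.1 in the submitters' processing notes) to their NCBI and TruSeq reference, and the deposited values are raw counts of UMIs for each gene in each barcode. Barcodes with at least 500 UMIs and 330 to 8950 genes were kept. No doublet caller was run. The genes followed and the gene lists were chosen with earlier results of these data known, and so were the gates. Genes were named from the study's table of gene names (1998), the deposited list (5456) and RefSeq (559, assembly UKy_Petmar_22M1.pri1.0, names only), and 16966 had no name here. From the counts, CPM, shares and intervals were computed in Python 3.11.15 with numpy 2.4.6 and scipy 1.17.1. Each library was clustered with Pearson residuals of 3000 variable genes in place of log-normalised values, 50 components, 20 neighbours and the Louvain algorithm at resolution 1 (igraph 0.11.9). A cluster was called glial when its mean log2 level of the 7 genes lay nearer to the highest than to the median cluster. Sums per library and class were tested with edgeR 4.0.16 in R 4.3.3 (TMM, filterByExpr, library as a block). Each class was set against the mean of the other classes' fitted log2 levels. On simulated counts, 100% of 4-fold increases, 96% to 98% of 4-fold decreases and 42% to 54% of 2-fold increases were called. The simulation used a fixed dispersion and no difference between libraries other than depth. It changed only genes above a minimum mean count, and a 2-fold change lies at the threshold of a call. These rates are therefore not those of the reported tests. Named besides the 7 genes were up to 4 called genes per list and direction, the 10 genes most like the 7 across clusters, and the cell type markers with a named gene, of which some are not reported here; clusters where a gene was highest were singled out after their values were seen, and leaving glial gate cells out of those clusters was an alternative chosen after seeing the data. Alternatives changed the gates, filter, block, tool, thinning and resolution.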

Additional observations from a re-analysis of the deposited data

How the results depend on the processing

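Of the alternative values for the main comparisons, 42 stayed close to the reported ones and 6 moved. These values are counts and percentages, so none of them could be reversed in direction. A percentage counted as close when it lay within 1 standard deviation of the 2 libraries from their mean. The value of 1 library alone always does, so leaving out 1 replicate could not move a percentage. The contrasts called among neuron classes, 3 of 28, became 5 with no filter on low counts, 5 of 24 with cells thinned to 1000 UMIs (6 genes, HES1 not tested), 7 with glial gate cells left out, 0 without the replicate block and 0 with neuron gates of at least 1 UMI. Without the block 2 of the 28 had an unadjusted p under 0.05, with gates of at least 1 UMI 13 had, and DESeq2 1.42.0 called 4. For the unadjusted p the share of all genes was not counted. The list genes lower in glia, 4 as reported, became 1 with a glial gate of at least 2 of the genes. The cause was not tested. With 1 replicate left out, the pairs under 10% of the glial level ranged from 25 to 28, their median from 2.79% to 5.68% and the share of cells with at least 3 genes from 1.77% to 6.79%. With neuron gates of at least 1 UMI, 20 of the 28 pairs were under 10% in both libraries (medians 3.98% and 7.96%). A held-out glial gate of at least 2 of the other 6 genes also gave 20. Without held-out glial gate cells in the neuron gates, 27 were (medians 2.50% and 2.85%). The removed cells were gated on the other 6 genes. All 7 genes stayed highest in a glial cluster, but glial clusters are defined by the mean level of these genes, which favours this outcome. Sums of 1 library leave no residual degrees of freedom, so no call was made from 1 library. Depth limits HES1, CRYM and S1PR1: in thinned cells HES1 passed no filter in the neuron classes.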
